A study of Mus musculus with 6 samples.

Results

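The urea cycle turns ammonia, which is toxic, into urea, and the liver is the organ in which the whole cycle runs. Described here are 10 genes of that cycle and of the glutamine metabolism coupled to it. Cps1, Otc, Ass1, Asl and Arg1 encode the cycle's enzymes, and Nags encodes the enzyme that makes the activator of its first step. Slc25a15 and Slc25a13 encode the cycle's mitochondrial carriers, and Glul and Gls2 encode enzymes that make and break down glutamine. The 10 genes were taken by gene name. All 10 were found among the 16123 genes of the deposited mouse liver RNA sequencing table.

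The study asked how moderate exercise changes liver metabolism. Its exercise group was healthy adult mice that ran for 6 weeks, 22 km in all for each mouse, whose livers were taken 24 h after the last session. Its control group was sedentary mice that were given no treadmill training. Each group had 3 libraries, described as 3 mice a group. The sources used here do not give strain, sex or age in weeks.

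The cycle begins in the mitochondrion. Cps1, carbamoyl phosphate synthetase, fixes ammonia and is active only in the presence of N-acetylglutamate, which Nags makes. Otc then joins carbamoyl phosphate to ornithine to give citrulline, Ass1 and Asl add nitrogen from aspartate in the cytosol, and Arg1 splits arginine into urea and ornithine. Slc25a15 exchanges ornithine for citrulline across the inner mitochondrial membrane, and Slc25a13, also called citrin, exports aspartate in exchange for glutamate. In liver the cycle and the glutaminase Gls2 lie mainly in hepatocytes around the portal vein, and Glul, glutamine synthetase, lies in the last hepatocytes around the central vein, where it takes up the ammonia that escaped the cycle.

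The upstream sequences of the gene with the largest rise (Glul), the gene with the largest fall (Slc25a15) and the most abundant cycle gene (Ass1) are shown, since the data on these genes are levels of their transcripts. Each is the 250 bases before the RefSeq start in GRCm38.p6, given 5′ to 3′ on the strand of the gene. Capitals mark matches, on either strand, to the CCAAT box (CCAAT), the GC box (GGGCGG), the TATA box (TATAAA), a TCF/LEF element (ATCAAAG) or the core of a cAMP response element (TGACG). The Glul window is chr1:153899679-153899928 on the plus strand, the Ass1 window chr2:31470020-31470269 on the plus strand and the Slc25a15 window chr8:22398622-22398871 on the minus strand.
Glul: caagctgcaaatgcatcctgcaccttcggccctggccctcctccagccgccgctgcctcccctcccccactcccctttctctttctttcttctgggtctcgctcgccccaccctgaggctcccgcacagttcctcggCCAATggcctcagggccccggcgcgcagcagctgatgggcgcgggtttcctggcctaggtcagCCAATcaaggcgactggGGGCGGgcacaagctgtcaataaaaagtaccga
Ass1: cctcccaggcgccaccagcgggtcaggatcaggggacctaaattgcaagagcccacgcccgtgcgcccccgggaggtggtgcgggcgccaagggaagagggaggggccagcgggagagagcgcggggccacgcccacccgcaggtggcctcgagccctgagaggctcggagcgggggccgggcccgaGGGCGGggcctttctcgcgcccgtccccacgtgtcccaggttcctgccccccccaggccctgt
Slc25a15: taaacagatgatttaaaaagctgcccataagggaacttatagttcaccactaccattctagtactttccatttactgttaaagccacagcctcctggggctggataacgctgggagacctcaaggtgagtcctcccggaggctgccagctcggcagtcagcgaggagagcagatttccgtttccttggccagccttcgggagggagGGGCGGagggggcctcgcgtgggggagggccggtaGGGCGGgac
The Glul window held CCAAT 113 and 50 bases before the start and 1 GC box 33 bases before it. The Ass1 window held 1 GC box, 63 bases before the start, and the Slc25a15 window held GC boxes 44 and 9 bases before it. None of the 3 windows held the letters searched for as TATA box, TCF/LEF element or cAMP response core, which says only that these letters were not there. Of all 32851 RefSeq windows of this length 33.8% held CCAAT, 32.7% the GC box, 12.4% the TATA box, 3.21% the TCF/LEF element and 17.8% the cAMP response core. Windows were found for 6 of the 10 genes, and Slc25a15 has a further annotated start that is not shown.

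In the exercise livers Glul mRNA was higher, Slc25a15 mRNA was lower, and Cps1, Otc, Ass1 and Asl were slightly higher while Arg1 was slightly lower. Of the 10 genes 7 passed the threshold, 5 higher and 2 lower (edgeR quasi-likelihood test, adjusted p under 0.05 over all 10266 tested genes). Arg1 missed it under some scalings of the libraries, and Asl under several other settings, as given below. Among all tested genes 38.1% passed, 19.1% higher and 19.0% lower, and among the 2243 genes with a mean count of at least 1000, a level that all 10 genes reach, 56.9% passed. Every change was small. The largest, that of Glul, was 1.15-fold, and the median log2 fold change was 0.05 for the 10 genes beside −0.00 for all tested genes. The median absolute log2 fold change of all tested genes was 0.12. No member passed a test against a 1.2-fold change (edgeR glmTreat, 0 of 10 also at an unadjusted p under 0.05), whereas 6.36% of all tested genes did. DESeq2 called 6 of the 10, and 24.5% of all tested genes. The summed comparison that follows fixes the variation in advance, so changes as small as those of the 10 genes could not pass it. Treating each group as 1 summed library with an assumed biological variation of 0.1 called 0 of the 10 and 1.71% of all tested genes, and a replicate block called 7 of the 10 and 37.5%.

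The scaling of the libraries mattered at this size of effect. In sedentary libraries 29.1% to 29.4% of the counts fell on the top 20 genes, and in exercise libraries 26.8% to 27.2%, and most values scaled to the library total stood higher in exercise. The median log2 fold change of all tested genes was 0.08 without TMM, 0.03 with the top 20 genes left out of the totals, 0.06 by limma on log2(FPKM + 1) and 0.0956 on log2(TPM + 1). Log2 fold changes given below are exercise minus sedentary from counts scaled by TMM, a trimmed mean that sets most genes near 0. For the 10 genes they therefore lie below the ratios of the FPKM (fragments per kilobase, scaled by library size) printed beside them. Without TMM, 6 of the 10 genes were called higher and 1 lower, and of all tested genes 46.2% were called, 34.4% higher and 11.7% lower. By limma on log2(FPKM + 1) the split of the 10 was also 6 to 1, beside 38.6% of all tested genes, 27.9% higher and 10.7% lower. On log2(TPM + 1) it was 6 to 0, beside 45.1%, 36.2% higher and 8.91% lower. Median-of-ratios scaling, which like TMM sets most genes near 0, called 5 higher and 2 lower, beside 38.0% of all tested genes.

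**Figure D1:**
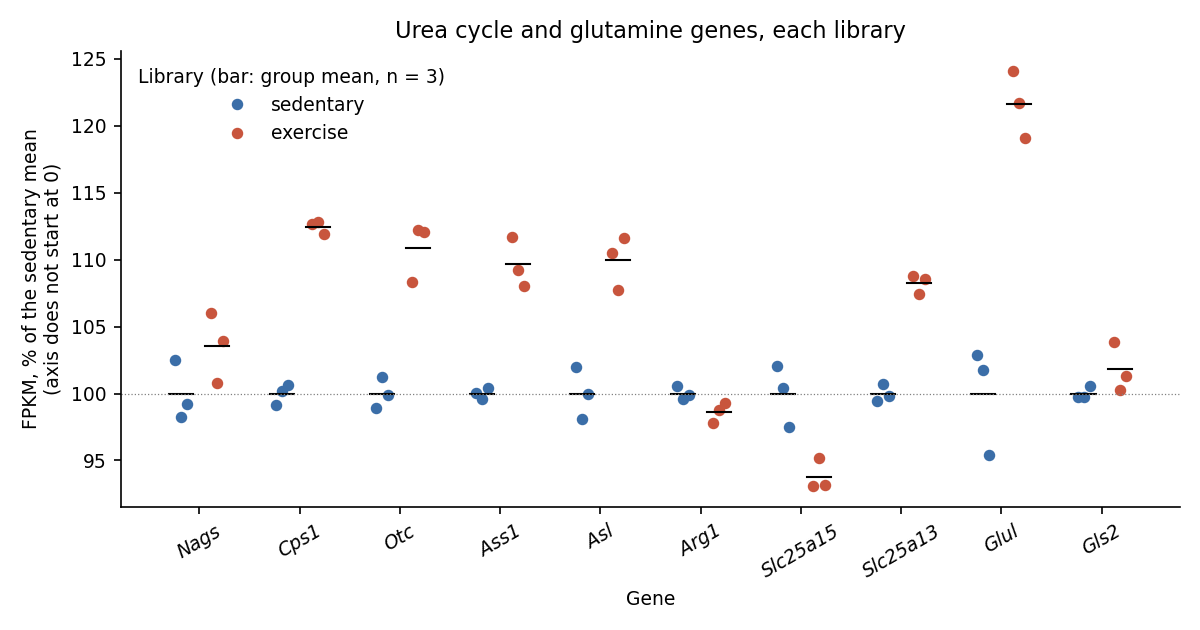
FPKM of each gene in each of the 6 libraries, as a percentage of the gene's sedentary mean (vertical axis, not starting at 0); points are libraries and bars are group means (n = 3). The Glul points of the exercise libraries lie farthest above 100% and those of Slc25a15 farthest below it, while Nags and Gls2 overlap between the groups.

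By FPKM the groups did not overlap for 8 of the 10 genes, 6 higher and 2 lower in exercise. This held for 51.0% of all tested genes, 36.6% higher and 14.3% lower. On TPM the groups overlapped for Arg1, and for Nags and Gls2 they did not, with exercise higher. Replicates were close. The coefficient of variation of a member's FPKM within a group was 0.402% to 4.04%. Over all genes with at least 20 reads in a pair of libraries, the mean chi-square against counting noise was 1.38 to 1.55 within groups, where noise alone gives about 1, and 29.5 to 32.6 between groups. The labels give 3 mice a group, but libraries of a group differed by little more than counting noise, and nothing in the files shows that they are separate animals. P-values and SEs measure the spread between these libraries, which may be technical. Library totals were 17941303 to 18371949 counts, and each of the 10 genes had at least 1129 reads in every library, all of them whole numbers. The transcript length implied by count and FPKM differed between libraries by 0.231% to 1.05% for these genes, so both measures moved together.

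Nags and Cps1 form the entrance of the cycle, and Cps1 was higher in exercise while Nags was not called. Cps1 (gene ID 227231, chromosome 1, 67122426 to 67231267 in GRCm38.p6) stood at 654.77, 661.50 and 664.44 FPKM in the sedentary libraries and at 743.72, 744.99 and 739.12 FPKM in the exercise libraries. Every exercise library was above every sedentary one. Its log2 fold change was 0.09 (SE 0.02, adjusted p = 1.78e-05) and stayed between 0.0881 and 0.0986 with any 1 library left out. Nags (gene ID 217214, chromosome 11, 102145513 to 102149528), the least abundant of the 10, stood at 35.91, 34.41 and 34.74 FPKM in the livers of sedentary mice and at 37.12, 35.29 and 36.40 FPKM in those of exercised mice. The groups overlapped. The log2 fold change of Nags was −0.02 (SE 0.04, adjusted p = 0.66) and took the other sign without TMM (0.05, adjusted p = 0.259), on FPKM (0.05) and on TPM (0.08), without passing. A long noncoding RNA gene, Gm11586, overlaps Nags in the RefSeq table, and the sources used here do not say if counting used strand.

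Otc (gene ID 18416, chromosome X, 10252230 to 10321024), which makes citrulline, stood at 201.39, 206.13 and 203.39 FPKM in the livers of sedentary mice and 220.60, 228.49 and 228.24 FPKM in those of exercised mice. Exercise libraries were all higher. The log2 fold change was 0.07 (SE 0.02, adjusted p = 0.0105). Without exercise replicate 2 it was 0.06 and missed the threshold (adjusted p = 0.0523).

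Ass1, argininosuccinate synthetase, was the most abundant of the 10 genes per length (gene ID 11898, chromosome 2, 31470270 to 31520670). Its level was 2015.57, 2006.22 and 2022.37 FPKM in the livers of sedentary mice and 2251.02, 2200.51 and 2176.94 FPKM in those of exercised mice. The groups were apart, and the exercise libraries were spread more widely (SD 37.9 against 8.11 FPKM). The log2 fold change was 0.06 (SE 0.02, adjusted p = 0.00587), and 0.051 to 0.0673 with any 1 library left out. Asl, argininosuccinate lyase, acts directly after Ass1 (gene ID 109900, chromosome 5, 130011258 to 130024381). It stood at 264.34, 254.28 and 259.23 FPKM in the livers of sedentary mice and 286.55, 279.41 and 289.38 FPKM in those of exercised mice, with no overlap. Its log2 fold change was 0.06 (SE 0.02, adjusted p = 0.0481), the call nearest to the threshold. The call of Asl ended with DESeq2 (adjusted p = 0.109), with the minimum mean FPKM set to 5 (0.0715) and when 1 library was left out, namely replicate 2 (0.203) or 3 (0.109) of the sedentary or 1 (0.105) or 3 (0.168) of the exercise group.

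Arg1, which releases urea, went the other way from the enzymes before it on the TMM scale (gene ID 11846, chromosome 10, 24915207 to 24927470). Its level was 919.03, 910.17 and 912.74 FPKM in the livers of sedentary mice and 893.76, 902.98 and 907.42 FPKM in those of exercised mice, just without overlap. On TPM the groups overlapped, at 1143 to 1148 in sedentary and 1147 to 1168 in exercise libraries. The log2 fold change was −0.09 (SE 0.02, adjusted p = 0.000151). It was −0.01 without TMM (adjusted p = 0.551) and −0.02 by limma on log2(FPKM + 1) (adjusted p = 0.385), and took the other sign on log2(TPM + 1) (0.01, adjusted p = 0.509). Macrophages can also express Arg1. The summed level of 11 markers of Kupffer cells and macrophages was 371 to 383 FPKM in sedentary and 321 to 326 FPKM in exercise libraries. Of 11 tested markers 9 were called lower and 0 higher, beside 19.0% lower and 19.1% higher of all tested genes. None of these markers was at 0, and their part in the Arg1 result was not tested. Arg1 overlaps the long noncoding RNA gene Gm40616. Arg2, the other arginase, had 1 to 4 reads a library and was not tested.

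Because shares within a library do not depend on its scaling, the composition of the 5 enzymes from Cps1 to Arg1 was taken from the FPKM. Arg1 made up 22.7%, 22.5% and 22.5% of their sum in sedentary libraries and 20.3%, 20.7% and 20.9% in exercise libraries, all of the latter lower. Cps1 made up 16.3% ± 0.129 in sedentary and 17.0% ± 0.0913 in exercise libraries (SD, n = 3). Ass1 went from 49.7% ± 0.0553 to 50.6% ± 0.540 (SD, n = 3). For Otc, the shares were 5.03% ± 0.0709 and 5.17% ± 0.135, and for Asl 6.40% ± 0.112 and 6.53% ± 0.127 (SD, n = 3), and in both the groups overlapped. The shares sum to a fixed total and were not tested. The sum itself was 4052 ± 12.3 FPKM in the livers of sedentary mice and 4364 ± 28.1 FPKM in those of exercised mice (SD, n = 3).

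**Figure D2:**
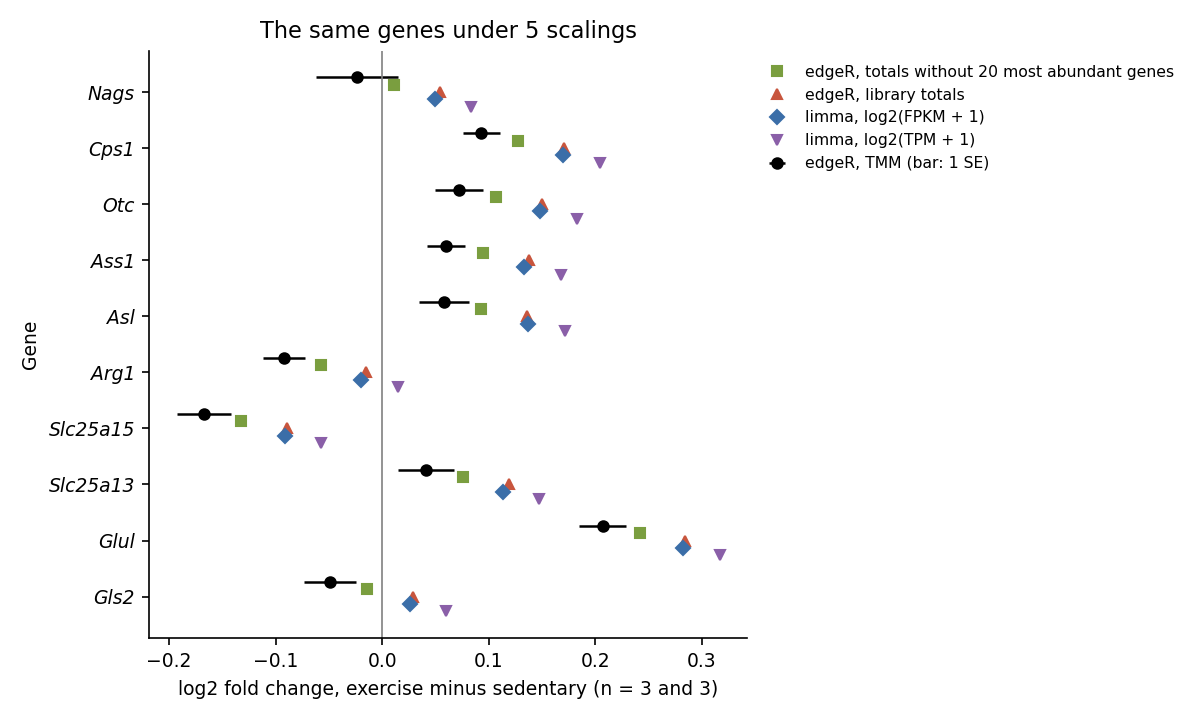
Log2 fold change of each gene, exercise minus sedentary (horizontal axis; n = 3 libraries a group), by edgeR with TMM scaling (black, bar of 1 SE) and under 4 other scalings. Each other scaling shown moves all 10 genes to the right. Nags crosses 0 under all 4, Gls2 under 3 of them (not with the top 20 genes left out of the totals) and Arg1 on TPM, and Glul is the highest and Slc25a15 the lowest throughout.

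The carriers were called differently. Slc25a15, the ornithine carrier, fell (gene ID 18408, chromosome 8, 22375550 to 22398621). It stood at 83.38, 82.01 and 79.62 FPKM in the livers of sedentary mice and 76.01, 77.72 and 76.07 FPKM in those of exercised mice. All exercise libraries were lower. The log2 fold change was −0.17 (SE 0.03, adjusted p = 5.72e-07), a 1.12-fold fall, and it was −0.06 by limma on log2(TPM + 1), where it did not pass (adjusted p = 0.121). Slc25a13, the aspartate and glutamate carrier (gene ID 50799, chromosome 6, 6041218 to 6217304), stood at 69.44, 70.36 and 69.72 FPKM in the livers of sedentary mice and 75.97, 75.02 and 75.82 FPKM in those of exercised mice. These groups did not overlap either, with exercise higher. Its log2 fold change of 0.04 did not pass (SE 0.03, adjusted p = 0.216), but it was 0.12 and passed without TMM (adjusted p = 0.000202), 0.08 when the top 20 genes were left out of the totals (0.0167) and 0.11 by limma on log2(FPKM + 1) (0.00657).

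The ratio of the carriers was compared within libraries, where scaling drops out. Slc25a15 was at 1.2, 1.17 and 1.14 times the FPKM of Slc25a13 in the sedentary libraries and at 1.0, 1.04 and 1.0 times in the exercise libraries. The ratio was thus lower in 3 of 3 exercise libraries, where both carriers had nearly the same level. The difference on the log2 scale was −0.21 (exact permutation p = 0.1, two-sided). This is the smallest p that 3 against 3 libraries allow, so that this test cannot reach 0.05. Of the other carriers that can serve the cycle, Slc25a12, a second aspartate and glutamate carrier, was at 5.47 ± 0.0252 FPKM in the livers of sedentary mice and 4.89 ± 0.361 FPKM in those of exercised mice (SD, n = 3). Slc25a12 fell (log2 fold change −0.24, adjusted p = 0.00918), a call that ended without exercise replicate 2 (adjusted p = 0.0597), without TMM (0.0734), with DESeq2 (0.0788) and by limma on log2(FPKM + 1) (0.082) and log2(TPM + 1) (0.154). Slc25a2, a second ornithine carrier, had 1 to 5 reads a library and was not tested.

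Glul showed the largest difference of the 10 genes (gene ID 14645, chromosome 1, 153899929 to 153909723). It stood at 440.16, 435.34 and 408.09 FPKM in the livers of sedentary mice and 530.83, 520.63 and 509.48 FPKM in those of exercised mice. The lowest exercise library lay well above the highest sedentary one, and sedentary replicate 3 was the lowest of all. The log2 fold change was 0.21 (SE 0.02, adjusted p = 6.04e-11), a 1.15-fold rise. It was 0.17 without sedentary replicate 3, 0.23 without sedentary replicate 1, and 0.32 on log2(TPM + 1). Gls2, the liver glutaminase (gene ID 216456, chromosome 10, 128194635 to 128210004), stood at 136.41, 136.41 and 137.53 FPKM in the livers of sedentary mice and 142.05, 137.15 and 138.61 FPKM in those of exercised mice, which overlapped. Its log2 fold change was −0.05 (SE 0.02, adjusted p = 0.106), and 0.03 without TMM and on FPKM (adjusted p = 0.35 and 0.419). The microRNA gene Mir8114 overlaps the start of Glul, and Spryd4 overlaps Gls2.

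Glul stood at 3.23, 3.19 and 2.97 times the FPKM of Gls2 in the sedentary libraries and at 3.74, 3.80 and 3.68 times in the exercise libraries. All 3 exercise ratios were above all sedentary ones. The difference was 0.26 on the log2 scale (exact permutation p = 0.1, two-sided, again the smallest possible).

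**Figure D3:**
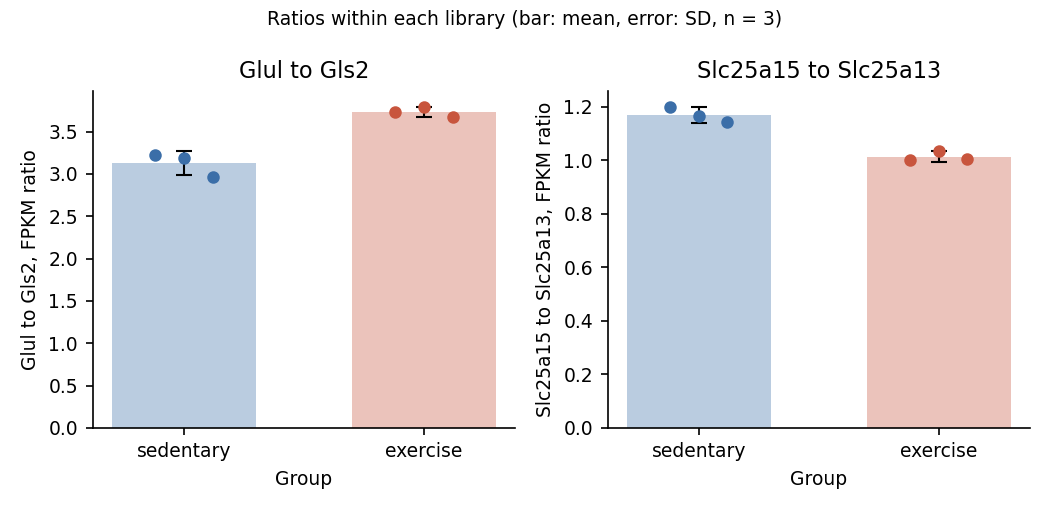
Ratio of FPKM within each library for Glul to Gls2 (left) and Slc25a15 to Slc25a13 (right); points are libraries, bars are group means and error bars are SD (n = 3), and both axes start at 0. The first ratio is higher in all exercise libraries and the second is lower in all of them.

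By level per length, in both groups, the order ran from Ass1 over Arg1, Cps1, Glul, Asl, Otc and Gls2 to the carriers and Nags. No neighbours among the first 7 overlapped in any library. The carriers did not overlap within the sedentary group, and in the exercise group the lowest library of Slc25a15 (76.01 FPKM) exceeded the highest of Slc25a13 (75.97 FPKM) by less than the SD of either.

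Related genes were read against the 38.1% called among all tested genes and the 56.9% among those with a mean count of at least 1000. The balance of higher and lower calls in these lists turned with the scaling. Other enzymes of ammonia, glutamate and glutamine were called in both directions. Of 24 tested genes 7 rose, 10 fell and 7 missed the threshold. Their median log2 fold change was −0.04 (0.04 without TMM, and 0.07 with 10 higher to 3 lower on TPM). Of these enzymes 70.8% were called, beside 38.1% of all tested genes and 56.9% of those with a mean count of at least 1000. Glud1, glutamate dehydrogenase, which releases ammonia from glutamate, rose from 374 ± 1.81 to 426 ± 1.43 FPKM (SD, n = 3; log2 fold change 0.11, adjusted p = 4.68e-06). Kyat3, an aminotransferase that can use glutamine, rose 1.58-fold, and Gfpt1, which takes nitrogen from glutamine for hexosamines, rose 1.49-fold. Asns, which makes asparagine with nitrogen from glutamine, fell 2.08-fold, from 3.46 ± 0.287 to 1.75 ± 0.323 FPKM (SD, n = 3), and Pfas, a glutamine-using enzyme of purine synthesis, fell 1.33-fold. The cytosolic aspartate aminotransferase Got1 fell 1.14-fold, and missed the threshold on log2(TPM + 1) (adjusted p = 0.057). Its mitochondrial partner Got2 had means of 251 and 260 FPKM and missed the threshold (log2 fold change −0.03, adjusted p = 0.305), but took the other sign without TMM (0.05) and on FPKM (0.05), and was called higher on log2(TPM + 1) (0.08, adjusted p = 0.0128). Oat, which links ornithine to glutamate and is a pericentral enzyme like Glul, fell from 642 ± 7.67 to 580 ± 6.08 FPKM (SD, n = 3; log2 fold change −0.22, adjusted p = 2.03e-13).

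Of 22 tested transporters of amino acids, ammonium and urea 4 rose, 6 fell and 12 missed the threshold. This was 45.5% called, beside 38.1% of all tested genes and 56.9% of those with a mean count of at least 1000. The median log2 fold change of the transporters was 0.00, and 0.13 with 8 higher to 3 lower on TPM. Slc38a3, a glutamine transporter abundant in liver, fell from 688 ± 6.39 to 588 ± 8.76 FPKM (SD, n = 3), and Slc38a2, a transporter of small neutral amino acids, rose 1.24-fold. Slc7a2, which carries arginine, lysine and ornithine, fell 1.13-fold, a call that ended on log2(TPM + 1) (log2 fold change −0.07, adjusted p = 0.0728). Slc3a1, a partner of cystine and dibasic amino acid transport, fell 1.62-fold, and Slc43a1, a carrier of large neutral amino acids, fell 1.58-fold. Slc1a2, a glutamate transporter found beside Glul in pericentral hepatocytes, rose from 33.7 ± 1.12 to 37.7 ± 1.48 FPKM (SD, n = 3; log2 fold change 0.17, adjusted p = 1.10e-06). The transcript length implied by its count and FPKM differed between libraries by 11.3%, so its 2 measures did not move together. Rhbg, an ammonium transporter of pericentral hepatocytes, had means of 7.85 and 8.14 FPKM and missed the threshold (log2 fold change −0.02, adjusted p = 0.873). It took the other sign without TMM (0.06), on FPKM (0.05), on TPM (0.08) and without exercise replicate 1 (0.02).

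Among enzymes of arginine, creatine, nitric oxide and polyamines, 3 of 19 tested genes rose, 6 fell and 10 missed the threshold. This was 47.4% called, beside 38.1% of all tested genes and 56.9% of those with a mean count of at least 1000. The median log2 fold change of the 19 was −0.07, and 0.03 with 6 higher to 1 lower on TPM. Odc1, ornithine decarboxylase, which draws ornithine into polyamines, fell 1.16-fold, and the polyamine oxidase Paox fell 1.22-fold. Amd1, which makes the aminopropyl donor for polyamines, rose 1.16-fold, and Ddah1, which degrades methylated arginine, rose 1.18-fold. The deposited counts of Amd1 were not whole in any library, at 890.36 to 1187.66. On log2(TPM + 1) Odc1 did not pass (log2 fold change −0.10, adjusted p = 0.0563).

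Regulators of the cycle were called in both directions too, 7 of 26 higher and 8 lower. This was 57.7% called, beside 38.1% of all tested genes and 56.9% of those with a mean count of at least 1000. Several regulators, Cebpb and Sirt5 among them, do not reach that count. The median log2 fold change of the 26 was 0.01, and 0.12 with 13 higher to 5 lower on TPM. The list of 26 also holds Tat, an aminotransferase that is among the periportal markers too. Hnf4a, a hepatocyte transcription factor, went from 157 to 200 FPKM on average, a 1.21-fold rise, while Cebpb fell 1.28-fold and Cebpa did not pass (log2 fold change 0.02, adjusted p = 0.551). Cebpa was called higher without TMM (0.10, adjusted p = 0.000842), by limma on log2(FPKM + 1) (0.09, adjusted p = 0.0192) and on log2(TPM + 1) (0.13, adjusted p = 0.00303). Sirt5, a mitochondrial deacylase known to act on the CPS1 protein, fell from 10.4 ± 0.176 to 8.27 ± 0.751 FPKM (SD, n = 3; log2 fold change −0.41, adjusted p = 0.000155). Of the insulin receptor substrates Irs1 rose 1.48-fold and Irs2 fell 1.38-fold.

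Zonation markers that are not among the 10 genes were set beside Glul and the cycle. Called were 38.1% of all tested genes and 56.9% of those with a mean count of at least 1000. Axin2, Lgr5, Rhbg and other pericentral markers do not reach that count. Of 24 pericentral markers 7 rose and 7 fell (58.3% called), with a median log2 fold change of 0.03. Of 23 tested periportal markers 8 rose and 12 fell (87.0% called), with a median of −0.08. On TPM the splits were 11 to 5 (median 0.12) and 11 to 8 (median 0.03). Tbx3 and Nr1i3, transcription factors enriched in pericentral hepatocytes, rose 1.57-fold and 1.55-fold, and Cyp7a1 and Slc13a3 fell 2.12-fold and 1.49-fold. On the periportal side Hsd17b6 rose 1.96-fold, Etnppl 1.75-fold and G6pc 1.40-fold, and Aldh1b1 fell 1.49-fold. Neither side of the lobule was called in 1 direction. In whole liver, fewer cells of a type and less RNA per cell cannot be told apart.

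**Figure D4:**
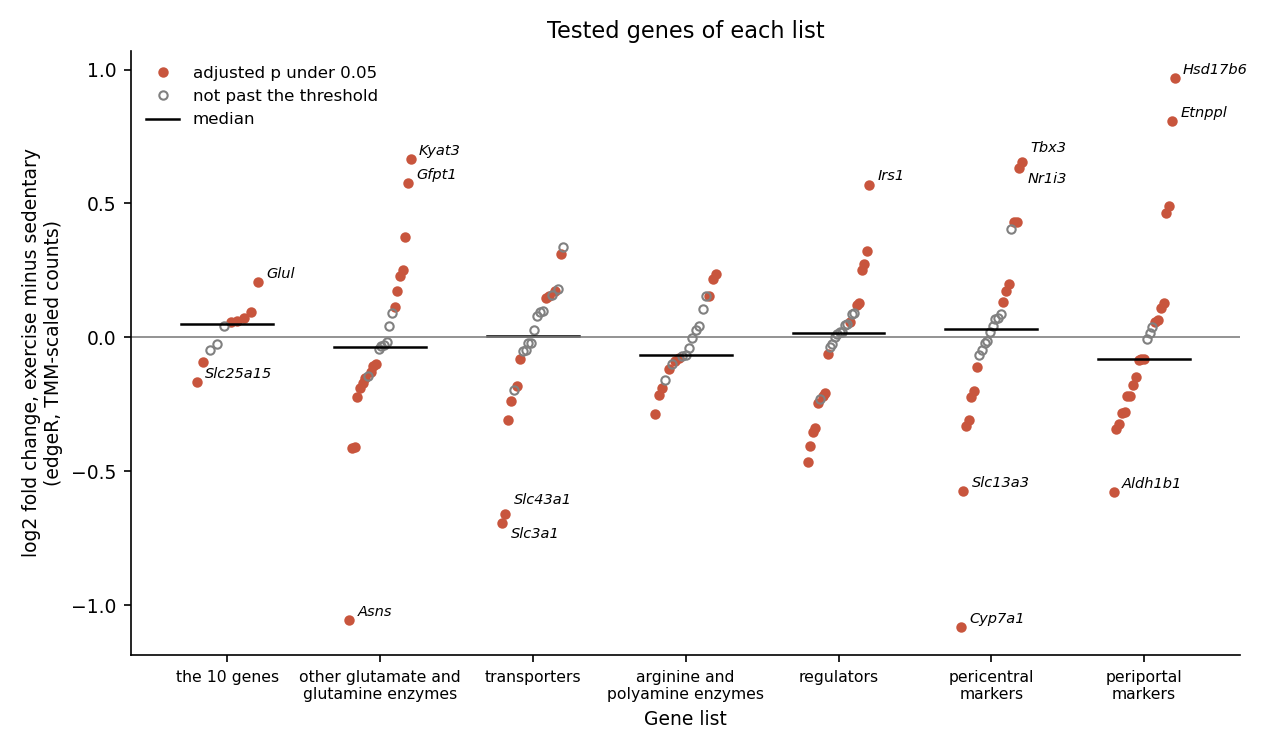
Log2 fold change of every tested gene, exercise minus sedentary, by TMM-scaled counts (vertical axis) in each gene list (horizontal axis); filled points have an adjusted p under 0.05 by edgeR, open points do not, and bars are medians. The 10 genes lie between −0.17 and 0.21, a narrower range than any of the other lists, and all lists hold called genes on both sides of 0.

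The summed levels of markers of several other cell types did not overlap between the groups. Those of hepatocytes, neutrophils and lymphocytes overlapped. Hepatocyte markers, matched for 9 of 10 names and holding Cps1, summed to 77264 to 78588 FPKM in sedentary and 77093 to 77759 FPKM in exercise libraries. None of them was at 0. Endothelial markers summed to 126 FPKM in each sedentary library and 139 to 148 FPKM in exercise libraries (4 of 10 higher, 0 lower). Stellate cell markers summed to 128 to 131 and 167 to 171 FPKM (5 of 9 higher, 1 lower). Of all tested genes 38.1% were called, 19.1% higher and 19.0% lower. Of 9 hepatocyte markers 4 were called higher and 5 lower, and of 5 tested erythroid markers 4 were lower and 0 higher. Of 2 tested cholangiocyte markers 1 was lower, and none of 3 neutrophil or 2 lymphocyte markers was called. The 1 tested marker of intestine, kidney and muscle was higher. Cholangiocyte markers summed to 64.3 to 66.8 FPKM in sedentary and 34.0 to 35.5 FPKM in exercise libraries, and pancreatic acinar markers to 18.7 to 20.0 and 8.17 to 8.76 FPKM. Erythroid markers summed to 381 to 393 and 335 to 352 FPKM, neutrophil markers to 11.4 to 18.2 and 9.98 to 12.9 FPKM, lymphocyte markers to 5.64 to 6.75 and 5.96 to 6.76 FPKM, and those of intestine, kidney and muscle to 47.4 to 49.3 and 53.1 to 55.7 FPKM. Untested markers lay below a mean FPKM of 1. Most of the cholangiocyte sum thus came from 2 of 9 genes, and most of the intestine, kidney and muscle sum from 1 of 8. The 2 acinar markers that could be tested fell, and 11 acinar markers, Amy2a5 among them, were at 0 in every exercise library. The part of these cells in the results on the 10 genes was not tested.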

How the data were processed

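Liver RNA was sequenced in 3 exercise and 3 sedentary libraries. Per the labels' protocols, RNA was taken with TRIzol, read in pairs on a DNBseq instrument, and reads of low quality were removed. The submitters' processing notes name GRCm38.p6, cutadapt, featureCounts and MultiQC. The sources used here give no versions, aligner or annotation. Per the file headers, the authors deposited a read count, an FPKM and a TPM per gene and library. The deposited read counts were handled as estimated counts, since 1165 genes had values that were not whole. How the authors came to such values is not stated. The 6 columns of averages were not used.

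Columns were matched to samples by the labels' descriptions. Counts were rounded to whole numbers and fitted with edgeR 4.0.16 (R 4.3.3; TMM, quasi-likelihood F test, two-sided, no covariates, all 6 libraries) over 10266 genes (mean FPKM 1 or more), with Benjamini-Hochberg adjustment and a threshold of 0.05. SE is the absolute log2 fold change over the root of F. DESeq2 1.42.0, limma 3.58.1, other scalings and filters, a block on the replicate number and leaving out each library were alternatives. Functions were tested on simulated data. Coordinates and upstream windows are from RefSeq, GRCm38.p6, counted from 1. The 10 genes, the lists and the tests were chosen with earlier results of these data known. Motifs were chosen after values were seen. Named beside the 10 genes were, per list, up to 4 called genes with the largest change and no overlap in FPKM, and 17 genes fixed by name, of which 1 is not reported here.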

Additional observations from a re-analysis of the deposited data

How the results depend on the processing

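Signs and calls of Cps1, Ass1 and Glul were kept in 16 of 18 alternatives each, the exceptions being the test against a 1.2-fold change and the comparison of 1 summed library per group at an assumed biological variation of 0.1, in which none of the 10 genes was called. The assumed variation of the summed comparison lets no change as small as those of the 10 genes pass. Arg1 took the other sign on log2(TPM + 1) (0.0145). Nags did so without TMM (0.0539), with the top 20 genes left out of the totals (0.011), by limma on log2(FPKM + 1) (0.0492), on log2(FPKM + 0.1) (0.0504) and on log2(TPM + 1) (0.0834). Gls2 did so without TMM (0.0287), by limma on log2(FPKM + 1) (0.0257), on log2(FPKM + 0.1) (0.0258) and on log2(TPM + 1) (0.0601). With median-of-ratios scaling no gene among the 10 changed its sign or its call.

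Of all tested genes 3913 passed, 2512 with DESeq2, 653 in the test against a 1.2-fold change and 176 with 1 summed library per group. These last 2 called 0 and 0 of the 10 genes (0 and 0 also at an unadjusted p under 0.05, against 7 by edgeR and 6 by DESeq2 without a fold limit), 3 and 1 of the other glutamate and glutamine enzymes, 3 and 1 of the transporters, 0 and 0 of the arginine and polyamine enzymes (0 and 0 unadjusted, against 9 by edgeR and 8 by DESeq2), 2 and 0 of the regulators (5 and 2 unadjusted, 15 by edgeR, 11 by DESeq2), 6 and 1 of the pericentral and 5 and 2 of the periportal markers. Without TMM, calls split 7 higher to 6 lower in the other glutamate and glutamine enzymes, 7 to 4 in transporters, 4 to 3 in arginine and polyamine enzymes, 13 to 5 in regulators, 10 to 6 in pericentral and 11 to 8 in periportal markers.

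Replicate numbers in the sample titles are not said to pair animals, and same-numbered libraries did not deviate together (r = −0.0306, −0.0159 and −0.025). With the replicate block 3846 of all tested genes and 7 of the 10 genes were called. The ratios of Glul to Gls2 and of Slc25a15 to Slc25a13 kept their direction on TPM, on counts and without any 1 library. Depth limits Arg2 and Slc25a2, with 1 to 5 reads a library, which were not tested.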
